A study of Gallus gallus with 5 samples.

Results

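The genes described here belong to families that act in the cell division cycle and the copying of DNA. Not every member drives division, since some inhibit or repress it and some kinases act in transcription or elsewhere. The whole set is called the cell cycle genes below. They are all loci whose gene symbol is a cyclin of the A, B, D or E class, a numbered cyclin-dependent kinase (CDK) or CDK inhibitor (CDKN), a numbered MCM, ORC, GINS, E2F or PLK gene, or AURKA, AURKB, BUB1, BUB1B, CDC6, CDC7, CDC20, CDC25A, CDC25B, CDC45, CDT1, GMNN, MKI67, PCNA or TOP2A. The rule found 66 loci among 18365 with counts, each with its own symbol, and it used no measured value. No locus carried the symbols AURKB, CDC25B, CDK2, CDK4, CCNB1, MCM7, CDKN1A, CDKN1C or CDKN2D, and these were not analysed here. Another 4 loci carry older symbols of such genes (CDC2 for CDK1, and ORC2L, ORC3L and ORC5L for ORC subunits), and they are given beside the 66 but not counted with them.

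RNA was sequenced from ectoderm of Bovans Brown chick embryos on its way to the inner ear, and from the whole embryo. The ectoderm libraries were the posterior pre-placodal region (PPR, labelled HH6), otic-epibranchial progenitors (OEPs) at 5-6 somites (ss), the thickened otic placode at 8-9ss and the invaginating otic placode at 11-12ss, and the reference was the whole embryo at 3ss. The labels name no treatment, many pieces of tissue were pooled for each otic library, and underlying mesoderm and endoderm had been removed with a needle and dispase. Each condition had 1 library, so no p-value was computed and every error below is counting error alone.

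A cell leaves G1 when D cyclins with CDK6 and E cyclins with their kinase inactivate RB, which frees E2F factors to switch on the genes of S phase. Before that, the origin recognition complex (ORC), CDC6 and CDT1 load the MCM helicase on DNA, and CDC7, CDC45 and the GINS complex later fire it, while PCNA clamps the polymerase to the template. Cyclins A and B with CDK1 then carry the cell into mitosis, which Aurora and Polo-like kinases execute and the BUB checkpoint and CDC20 time. Placodal ectoderm at these stages is known as a dividing epithelium.

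The libraries held 26858887 to 136916870 counted reads, the fewest in OEPs and the most in the PPR. The tissue labels were checked against marker lists. PAX2, an otic marker, was at 0.451 RPKM in the PPR, 88.6 in OEPs, 99.7 at 8-9ss and 172 at 11-12ss, against 4.30 in whole embryo. RPKM, a read count scaled by transcript length and by mapped reads, allows levels of different genes to be compared. Of the 7 mesoderm loci measured, TBX6 was at 0.119 to 0.226 RPKM and T at 1.65 to 2.23 in the ectoderm libraries, against 117 and 275 in whole embryo. MSGN1 was at 0 to 0.223, against 74.1, and TCF15 at 0.532 to 4.69, against 52.5. FOXC2 and TWIST1 differed less, at 9.08 to 35.6 against 62.2 and at 0.479 to 4.70 against 8.71. MEOX2 was at 0 to 0.0984 in the ectoderm libraries, with at most 6 reads, and at 0 in whole embryo. The summed RPKM of the list was 13.3 to 43.6 against 590, and FOXC2 gave most of the sum in each ectoderm library. The 4 endoderm loci summed to 115 RPKM in OEPs, against 26.3 to 32.4 in the other ectoderm libraries and 345 in whole embryo. TTR at 38.2 and APOA1 at 70.5 gave most of the OEP sum, while HHEX and CXCR4 went the other way. HHEX was at 1.98 in OEPs, against 3.01 to 3.90 in the other ectoderm libraries. CXCR4 was at 3.86 in OEPs, against 4.02 to 9.18 in those libraries. The 7 blood and vessel loci summed to 2.97 to 30.1 in the ectoderm libraries, against 35.5 in whole embryo. Single loci differed, and the HBZ loci, at 0 to 0.0527, were at 0 RPKM in whole embryo as well. Their reads disagreed with this. The HBZ loci held 42 and 44 reads in whole embryo, 22 and 25 at 11-12ss and 0 to 6 in the other libraries. KDR was at 0.328 to 3.48 in the ectoderm libraries, against 14.6 in whole embryo, and HBE at 1.61 to 2.01, against 1.52. At 11-12ss LMO2 was at 15.8, against 16.2 in whole embryo. CD34 and CDH5 were at 6.00 and 3.18 at 11-12ss, above their 2.48 and 0.696 in whole embryo. Neural and crest lists also varied. The 4 neural tube loci summed to 11.0 to 51.0 RPKM over the ectoderm libraries, against 82.7 in whole embryo. SOX2 gave most of that sum in each library, at 10.3 to 48.5 in the ectoderm libraries and 56.6 in whole embryo. In the otic libraries ZIC1 was at 0.0473 to 0.136, against 5.04 in whole embryo. NKX6-2 was at 0.559 to 0.802 there, against 15.98, and OLIG2 at 0.041 to 1.60, against 5.15. In the PPR these loci were at 0.767 to 2.60. The 6 neuron loci summed to 178 to 638, against 219, mostly TUBB3. DCX went the other way, at 8.70 in the PPR and 4.77 to 5.93 in the otic libraries, against 5.67 in whole embryo. ELAVL4 was at 6.22 in the PPR and 5.66 to 10.2 in the otic libraries, against 9.28. NEUROD1 was at 0 to 0.182 in the ectoderm libraries, against 0.101. STMN2 and ISL1 were higher in every otic library than in the PPR. The 4 crest loci summed to 287 to 419, against 113. TFAP2A gave most of the crest sum in the ectoderm libraries (225 to 324 RPKM, against 52.2 in whole embryo). SNAI2 went the other way, at 9.16 to 23.96 in the ectoderm libraries, against 53.2 in whole embryo. SOX9 was at 4.91 in the PPR, below its 7.13 in whole embryo, and was above that level in the otic libraries. SOX10 was at 124 RPKM at 11-12ss, against 39.4 at 8-9ss. The study reports that otic cells switch on SOX10 too, so SOX10 does not mark crest alone here. The 11 placode and ectoderm loci summed to 379 in the PPR, 1740 in OEPs, 1885 at 8-9ss and 1504 at 11-12ss, against 355 in whole embryo. GBX2 was the largest part in OEPs, at 816. DLX5 went the other way, at 129 in the PPR and 52.1 to 64.2 in the otic libraries. SIX4 was at 19.9 in the PPR and 11.0 to 19.9 in the otic libraries. KRT18 was at 40.6 at 11-12ss, below its 60.6 in the PPR and 74.5 in whole embryo. The other listed loci were higher in every otic library than in the PPR. What other cells contribute to the values below was not tested.

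The cell cycle genes took less than 1% of all counted reads in every library. The share was 0.820% in the PPR (exact 95% interval 0.818 to 0.821), 0.728% in OEPs (0.724 to 0.731), 0.676% at 8-9ss (0.673 to 0.678) and 0.715% at 11-12ss (0.712 to 0.717), against 0.783% in whole embryo (0.781 to 0.786). By this share the PPR was highest and the 8-9ss placode lowest. The order differed by RPKM, whose sum over the genes was 3732 in the PPR, 3803 in OEPs, 3631 at 8-9ss and 3465 at 11-12ss, against 3793 in whole embryo, with OEPs highest and 11-12ss lowest. These intervals are exact (Clopper-Pearson) binomial limits, and they are lower limits of the real error because PCR duplicates could not be separated. In such bulk tissue, fewer cells of a type and less RNA per cell cannot be told apart.

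Most of the 66 genes were transcribed at every stage. A gene is called expressed in a library when its normalized count is over 300 and its RPKM over 4, the study's own limits. By this measure 55 genes were expressed in all 5 libraries, another 5 in some of them (CCND2, CCNA1, CDK6, CDK19 and PLK2), and 6 in none. The 6 under the limits throughout were CDK3, CDK15, CDK20, CDKN2A, CDKN2B and CDKN2C. Over the 5 libraries, 22 of the 60 expressed genes (36.7%) varied by more than 1.5-fold between their highest and lowest library, against 63.1% of all 9603 expressed loci, and the median range was 1.44-fold against 1.67-fold. Over the 4 ectoderm libraries 21 of 60 (35.0%) did so, against 55.2% of all loci. Over the 3 otic libraries alone the count was 8 of 57 (14.04%), against 22.6% of all loci, with median ranges of 1.20-fold and 1.26-fold.

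**Figure D1:**
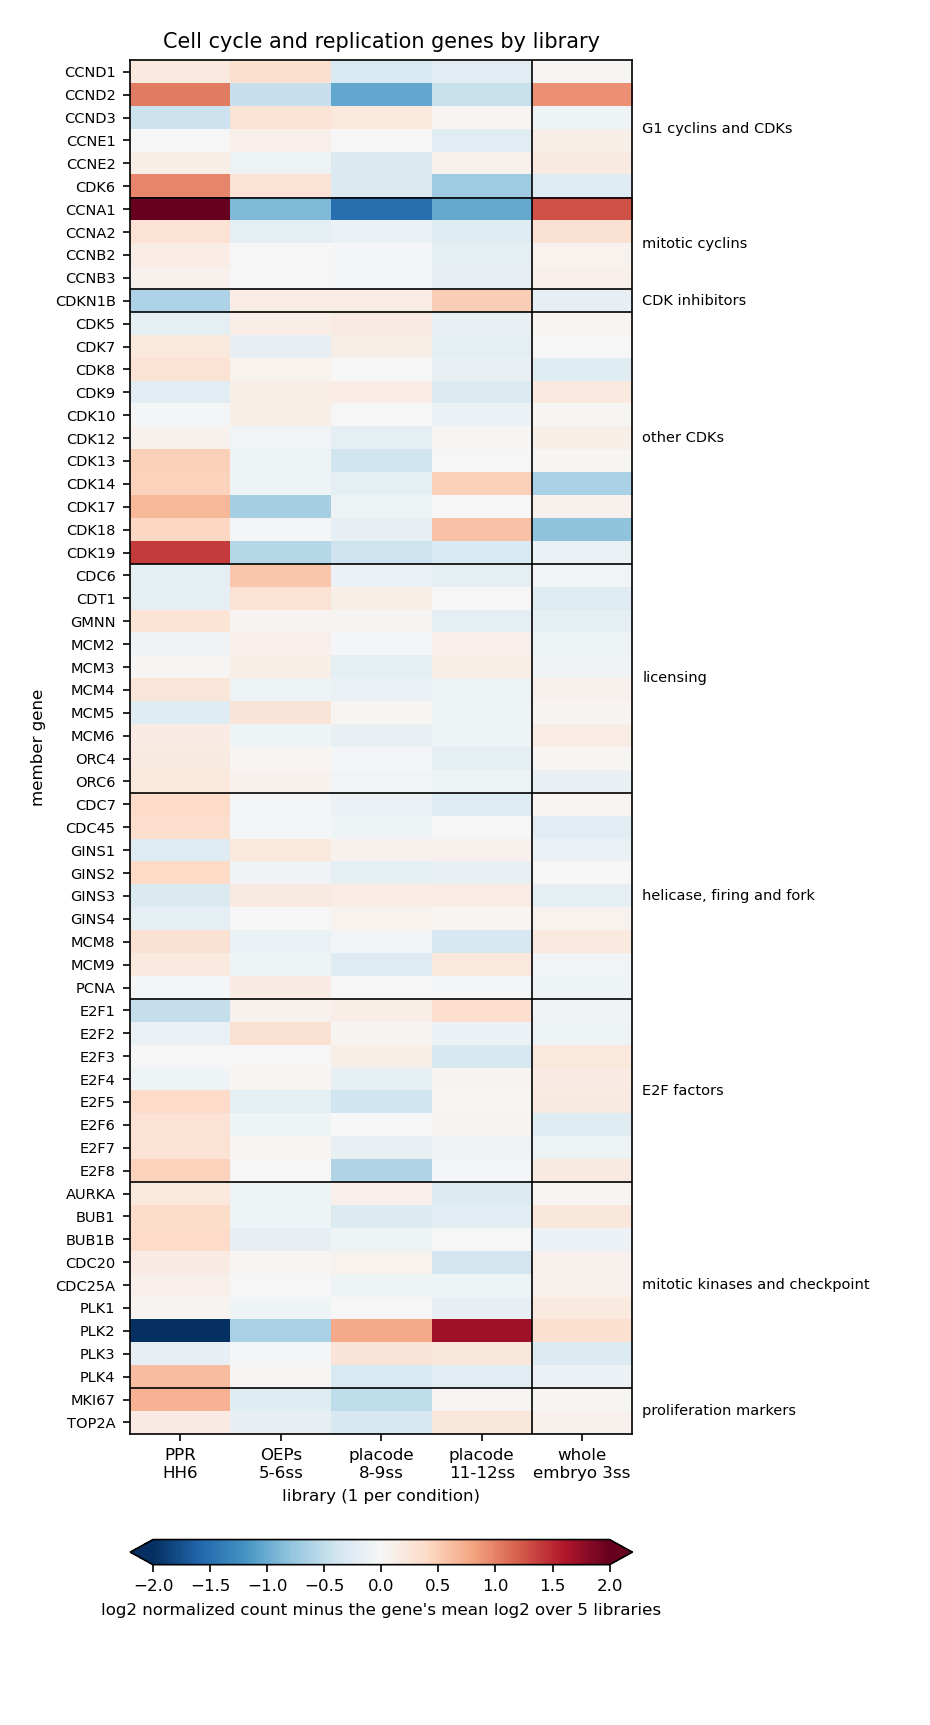
Level of the 60 expressed cell cycle and replication genes in the 5 libraries (columns), ordered by role; colour is the log2 normalized count minus the gene's own mean log2 over the libraries, cut at 2 in either direction. Most rows are pale, while CCNA1, CCND2 and CDK19 are red in the PPR, and CCNA1 and CCND2 are red in whole embryo as well. PLK2 is dark blue in the PPR and dark red at 11-12ss.

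More genes had their highest level in the PPR than in any other library. Of the 60 expressed genes, 29 had their highest level in the PPR, 10 in OEPs, 2 at 8-9ss, 9 at 11-12ss and 10 in whole embryo. Among all expressed loci the PPR was highest for 33.6%, and each of the other 4 libraries for 16.4% to 17.1%. The lowest level fell at 8-9ss for 19 genes and at 11-12ss for 17, against 10 in the PPR, 3 in OEPs and 11 in whole embryo. Among all expressed loci the lowest level fell at 8-9ss for 18.3%, at 11-12ss for 20.7%, in the PPR for 27.6%, in OEPs for 12.3% and in whole embryo for 21.0%.

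The next comparisons ask how the genes differ from each stage to the next and between each otic stage and the embryo as a whole. Counts were divided by size factors of the libraries compared, and a gene is called higher or lower when it differs by more than 1.5-fold and the higher library passes both expression limits. Consecutive comparisons share a library, and the comparisons with whole embryo all share that library, so their calls are not independent of each other.

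The step from the PPR to OEPs held the most calls and the widest shifts of the 6 comparisons, with a median size of the log2 fold change of 0.38 for the expressed genes and 0.42 for all loci, against 0.11 to 0.21 for the genes in the other 5. In OEPs against the PPR, 3 of 59 expressed genes were higher (5.08%), beside 18% of all loci, and 7 were lower (11.9%), beside 18.9% of all loci. The median log2 fold change was -0.22 for the genes and -0.03 for all loci, and 39 of the 59 genes lay below 0. Lower in OEPs were CCNA1, CDK19, CCND2, CDK17, MKI67, CDK6 and PLK4, and higher were CDKN1B, CDC6 and CCND3. OEPs were also the ectoderm library with the highest endoderm marker sum (115 RPKM, against 32.4 in the PPR). TTR and APOA1 gave most of that sum, while HHEX and CXCR4 were lower in OEPs than in the PPR. The part of endoderm in these calls was not tested.

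In the 8-9ss placode against OEPs, 0 of 56 genes were higher, beside 3.89% of all loci, and 3 were lower (5.36%), beside 4.99%. CDC6, CCND1 and E2F8 were the lower genes, at 1.52-fold to 1.59-fold, and the interval of each reached below 1.5-fold. The median log2 fold change was -0.07, against 0.00 for all loci.

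In the 11-12ss placode against the 8-9ss placode, 3 of 56 genes were higher (5.36%), beside 6.54% of all loci, and 0 were lower, beside 3.63%. PLK2, CDK18 and CDK14 were the higher genes. The median log2 fold change was -0.01, against -0.03 for all loci.

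Against whole embryo the otic stages differed in few of these genes. In OEPs 2 of 57 genes were higher (3.51%), beside 13.9% of all loci, and 2 were lower, beside 10.2%. At 8-9ss 1 of 56 was higher (1.79%), beside 15% of all loci, and 3 were lower (5.36%), beside 13.1%. At 11-12ss 4 of 57 were higher (7.02%), beside 14.7%, and 1 was lower (1.75%), beside 12.8%. The median log2 fold changes were -0.03 in OEPs, -0.07 at 8-9ss and -0.12 at 11-12ss, with all-locus medians of 0.03, 0.02 and -0.01. In all 6 comparisons together, 16 genes were called at least once. The share of all loci called at least once is not given here, so this count is not set against a background. CDK18 was the gene called higher, and CCND2 the gene called lower, in each of the 3 comparisons with whole embryo. By RPKM the CCND2 calls were met in all 3 and the CDK18 call only at 11-12ss.

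**Figure D2:**
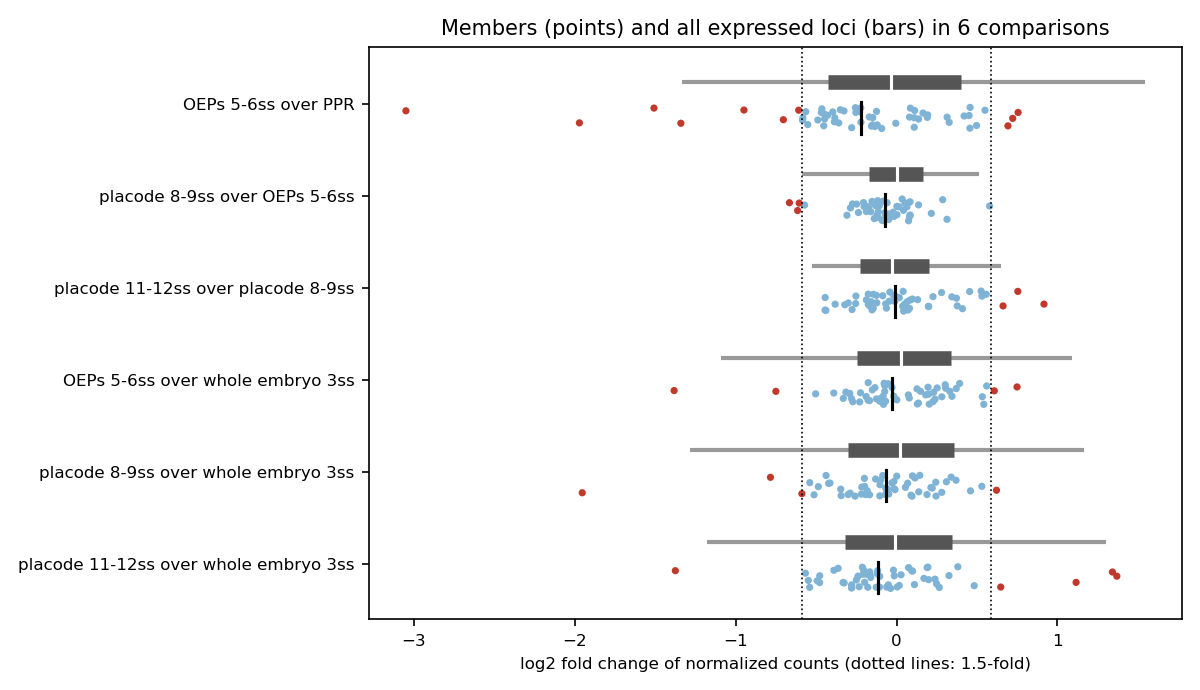
Log2 fold changes in the 6 comparisons; points are the expressed cell cycle genes (red: called higher or lower), the black tick their median, the thick bar the middle 50% and the thin bar the middle 90% of all expressed loci, and dotted lines mark 1.5-fold. Most points lie within the dotted lines, and the outlying genes to the left are CCNA1, CDK19, CCND2 and CDK17 in OEPs against the PPR, and CCND2 against whole embryo.

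Among the cyclins and the kinase of G1, related genes ran differently over the stages. Levels given without another unit are counts normalized over all 5 libraries. CCND1, the most abundant D cyclin, had 4559 in the PPR, 4951 in OEPs, 3204 at 8-9ss, 3392 at 11-12ss and 4053 in whole embryo. It was highest in OEPs and lower at both placode stages. The 8-9ss placode was lower than OEPs by 1.53-fold (95% interval 1.45 to 1.62).

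CCND2 ran differently, with 569 in the PPR, 201 in OEPs, 135 at 8-9ss, 204 at 11-12ss and 522 in whole embryo. The PPR and whole embryo were high and the 3 otic libraries low. OEPs were lower than the PPR by 2.84-fold (95% interval 2.34 to 3.48). Against whole embryo CCND2 was lower by 2.61-fold (95% interval 2.12 to 3.23) in OEPs, by 3.87-fold (95% interval 3.16 to 4.78) at 8-9ss and by 2.59-fold (95% interval 2.16 to 3.12) at 11-12ss.

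CCND3 had 1242 in the PPR, 2019 in OEPs, 1928 at 8-9ss, 1721 at 11-12ss and 1581 in whole embryo. Here the PPR was the lowest library, and OEPs exceeded it by 1.62-fold (95% interval 1.51 to 1.73). By RPKM the ratio was 1.45, short of 1.5-fold. Summed over the 3 D cyclins, RPKM was 122 in the PPR, 142 in OEPs, 98.4 at 8-9ss and 96.5 at 11-12ss, against 119 in whole embryo, and CCND1 gave 70.1% to 78.1% of that sum.

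CDK6, the kinase partner of the D cyclins, had 734 in the PPR, 453 in OEPs, 302 at 8-9ss, 226 at 11-12ss and 309.8 in whole embryo. Each later ectoderm library was below the one before it. OEPs were lower than the PPR by 1.63-fold (95% interval 1.43 to 1.86), a call not met by RPKM (OEPs over the PPR 0.680), while the later steps stayed short of the call, at log2 fold changes of -0.57 for the 8-9ss placode over OEPs and -0.43 for the 11-12ss placode over the 8-9ss placode. Relative to loci of similar length CDK6 passed the limit at 8-9ss over OEPs, as given below. At 11-12ss CDK6 was under the expression limits. The E cyclins CCNE1 and CCNE2, which drive entry into S phase, varied by 1.27-fold and 1.40-fold over the 5 libraries and were called in no comparison. By RPKM CCNE1 was at 27.0 in the PPR and 40.7 in OEPs, just past 1.5-fold.

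**Figure D3:**
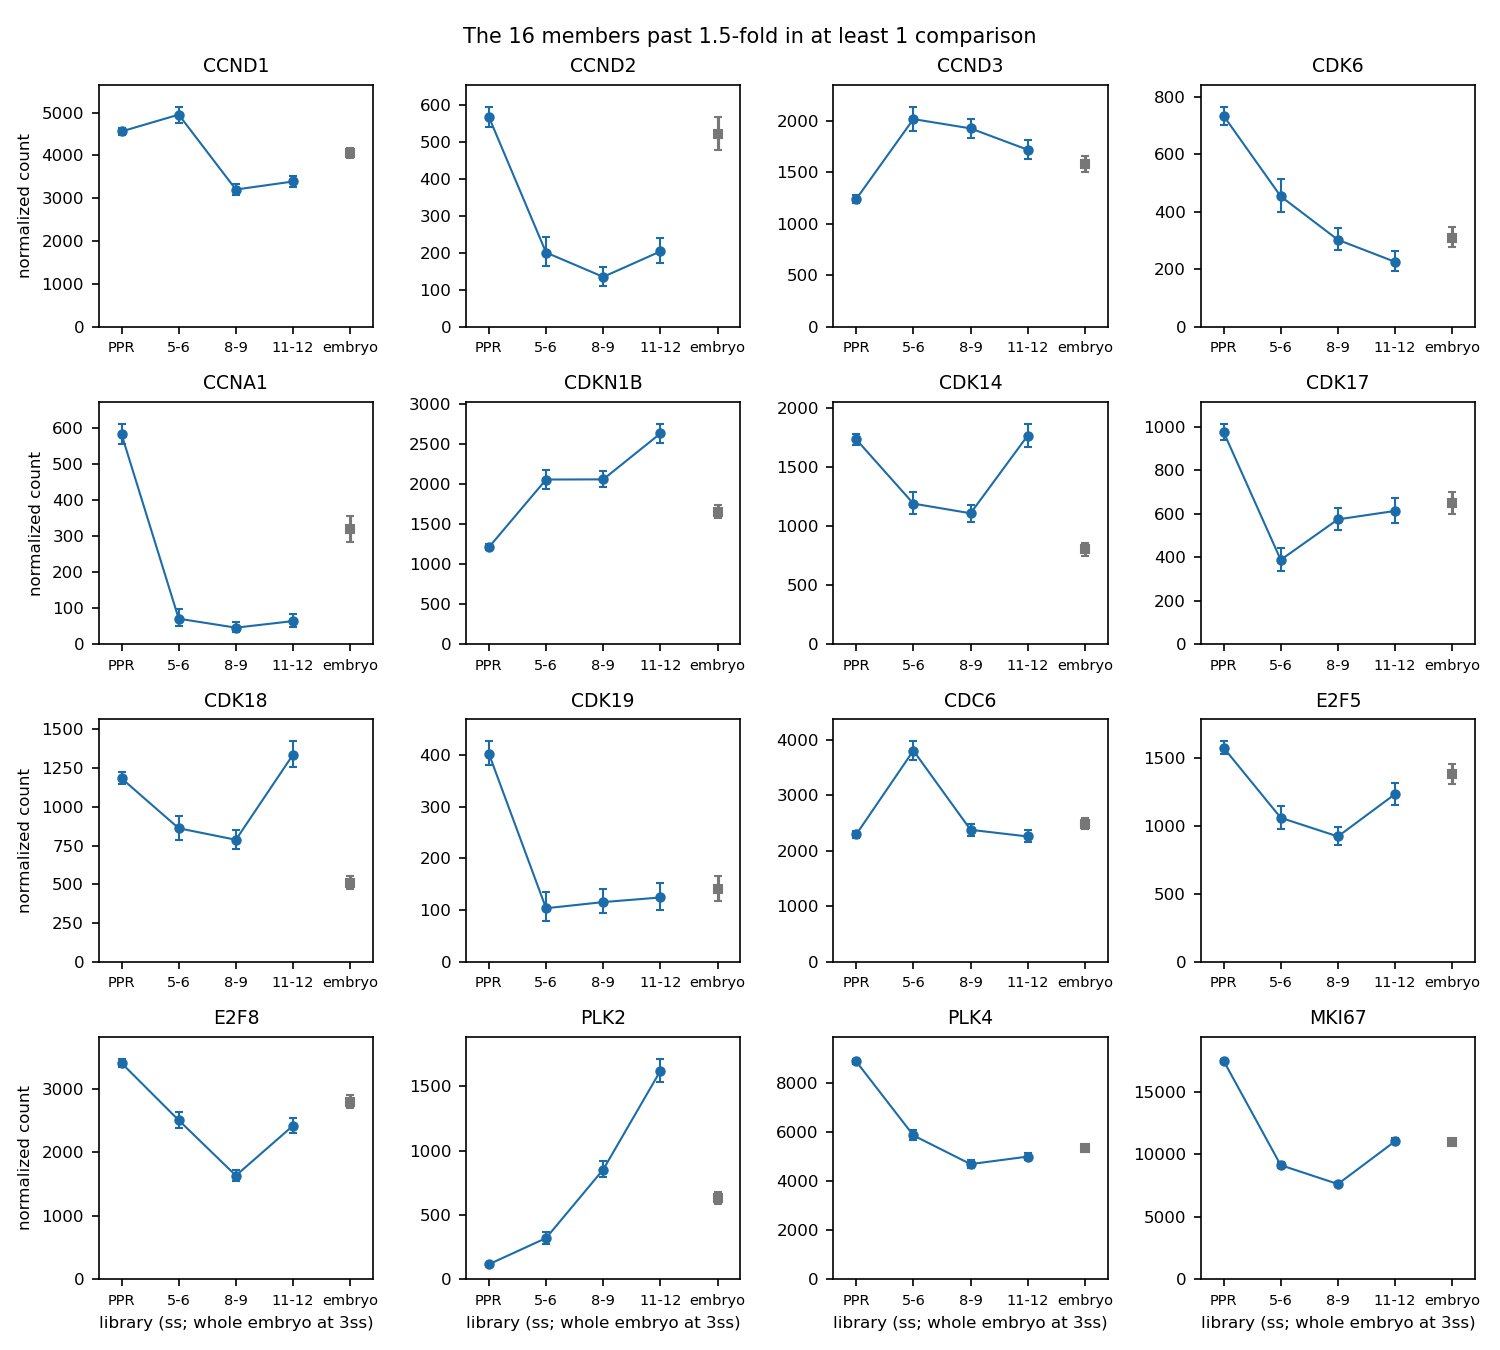
Normalized counts of the 16 genes called in at least 1 comparison, in the ectoderm libraries by stage (blue, joined) and in whole embryo (grey square); bars are exact 95% Poisson intervals of the counts, each library is 1 sample, and every axis starts at 0. CCNA1, CCND2 and CDK19 are high in the PPR and low in every otic library, and PLK2 climbs from stage to stage.

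Among the mitotic cyclins CCNA1 was called and the other 3 were not. CCNA1, known in the mouse as the cyclin A of the male germ line, had 581 in the PPR, 70.7 in OEPs, 45.9 at 8-9ss, 64.1 at 11-12ss and 318 in whole embryo. The otic libraries held 39, 39 and 48 reads of it, against 322 in whole embryo, while the PPR held 1684. OEPs were lower than the PPR by 8.27-fold (95% interval 6.02 to 11.7). At 0.512 to 1.06 RPKM CCNA1 was under the expression limits at all otic stages. Its log2 fold changes over whole embryo were -2.17 in OEPs, -2.80 at 8-9ss and -2.33 at 11-12ss, and none was called, since the normalized count of whole embryo within those comparisons was 238 to 295, under the limit of 300.

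The main mitotic cyclins were abundant and even. CCNB2, a B-type partner of CDK1, had the highest RPKM of the group, with 219 in the PPR, 205 in OEPs, 195 at 8-9ss, 178 at 11-12ss and 229.9 in whole embryo, or 20829.5 in the PPR, 18636 in OEPs, 18495 at 8-9ss, 16362 at 11-12ss and 19557 in whole embryo as normalized counts. CCNB3 and CCNA2 ranged over 131 to 178 RPKM and 56.8 to 83.7 RPKM, and by 1.20-fold and 1.46-fold in normalized counts. All 3 were lowest at 11-12ss. The locus CDC2, the older name of CDK1, the kinase these cyclins activate, had 391 to 569 RPKM and was likewise lowest at 11-12ss, with a range of 1.51-fold in normalized counts.

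Of the 4 CDKN loci that the rule found, CDKN1B alone was transcribed above the limits. Inhibitors without a locus under their symbol, such as CDKN1A and CDKN1C, were not measured. CDKN1B (p27), which holds cyclin-CDK complexes inactive, had 1213 in the PPR, 2060.4 in OEPs, 2063 at 8-9ss, 2637 at 11-12ss and 1658 in whole embryo. Its level was lowest in the PPR and highest at 11-12ss. OEPs were higher than the PPR by 1.69-fold (95% interval 1.58 to 1.81), and 11-12ss exceeded whole embryo by 1.57-fold (95% interval 1.47 to 1.67). By RPKM these ratios were 1.22 and 1.24, short of 1.5-fold. CDKN2A and CDKN2B had 0 reads in all 5 libraries, where a count of 0 (3 counts as the upper limit) still allows a share of up to 2.19e-06% of reads in the PPR and 1.12e-05% in OEPs, the libraries with the lowest and highest such limit. For CDKN2B the deposited RPKM disagreed in the PPR, at 0.0162, and was 0 in the other libraries. CDKN2C had 0 to 2 reads in each library.

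The other CDKs include kinases of transcription as well as less studied family members, and CDK14, CDK17, CDK18 and CDK19 were the 4 called among 14. CDK9, which releases paused RNA polymerase, had 3699 in the PPR, 4670.3 in OEPs, 4768 at 8-9ss, 3544 at 11-12ss and 4913 in whole embryo, or 44.4 to 62.6 RPKM, and was called in no comparison. CDK10 reached a higher RPKM at 8-9ss, 72.9, but its RPKM ran from 18.5 to 72.9 where its normalized counts varied by 1.17-fold, so the deposited tables disagree on it. CDK10 had 1506 in the PPR, 1667 in OEPs, 1558 at 8-9ss, 1420.0 at 11-12ss and 1569.5 in whole embryo. CDK7, CDK8, CDK12 and CDK13, which also act on RNA polymerase or Mediator, and CDK5, best known from neurons, were expressed in all libraries with no call. Their ranges were 1.23-fold to 1.83-fold, the widest that of CDK13.

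CDK19, the paralogue of CDK8 in Mediator, had 403 in the PPR, 103 in OEPs, 115 at 8-9ss, 124 at 11-12ss and 140.1 in whole embryo. It was expressed in the PPR only, and OEPs were lower by 3.92-fold (95% interval 3.00 to 5.21). CDK17, a PCTAIRE-family kinase, had 976 in the PPR, 388 in OEPs, 574 at 8-9ss, 613 at 11-12ss and 649 in whole embryo. OEPs were the low library, lower than the PPR by 2.53-fold (95% interval 2.20 to 2.92) and lower than whole embryo by 1.68-fold (95% interval 1.44 to 1.97). By RPKM OEPs over whole embryo was 0.744, so that call was not met, while that against the PPR was.

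CDK18, another PCTAIRE kinase, had 1184 in the PPR, 862 in OEPs, 787 at 8-9ss, 1337 at 11-12ss and 510.0 in whole embryo. The 11-12ss placode was its highest library and whole embryo its lowest. It was higher at 11-12ss than at 8-9ss by 1.69-fold (95% interval 1.53 to 1.86). Against whole embryo it was higher by 1.68-fold (95% interval 1.48 to 1.91) in OEPs, by 1.54-fold (95% interval 1.37 to 1.73) at 8-9ss and by 2.58-fold (95% interval 2.32 to 2.88) at 11-12ss. By RPKM these 3 ratios were 1.47, 1.30 and 2.14, so only that at 11-12ss stayed past 1.5-fold.

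CDK14, a partner of cyclin Y that acts on the Wnt co-receptor LRP6, had 1736 in the PPR, 1192 in OEPs, 1109.5 at 8-9ss, 1769 at 11-12ss and 804 in whole embryo. The PPR and 11-12ss libraries were high, and whole embryo was lowest. It was higher at 11-12ss than at 8-9ss by 1.58-fold (95% interval 1.45 to 1.72) and than whole embryo by 2.17-fold (95% interval 1.98 to 2.37). CDK3, CDK15 and CDK20 stayed under the limits, at 0 to 4, 19 to 151 and 91 to 167 reads.

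The genes that license origins were abundant and differed little, and CDC6 was the gene called among them. CDC6, which helps ORC to load the helicase, had 2296 in the PPR, 3811 in OEPs, 2380.2 at 8-9ss, 2260.2 at 11-12ss and 2488 in whole embryo. OEPs were the high library and the other 4 lay close together. OEPs exceeded the PPR by 1.65-fold (95% interval 1.57 to 1.73) and whole embryo by 1.52-fold (95% interval 1.44 to 1.62), and the 8-9ss placode was lower than OEPs by 1.59-fold (95% interval 1.49 to 1.69). By RPKM the same ratios were 1.12, 1.01 and 0.786, so none of the CDC6 calls was met in the deposited RPKM.

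MCM5, a subunit of the MCM2-7 ring, had the highest RPKM of the licensing genes, with 144 in the PPR, 178 in OEPs, 164 at 8-9ss, 146 at 11-12ss and 174 in whole embryo. Its normalized counts were 16935 in the PPR, 24049.8 in OEPs, 20672 at 8-9ss, 18685 at 11-12ss and 20831 in whole embryo. MCM2, MCM3, MCM4 and MCM6 ranged by 1.16-fold to 1.30-fold over the 5 libraries and MCM5 by 1.42-fold, with no call. The 5 subunits measured lay within 1.71-fold of each other in the PPR by RPKM, 2.48-fold in OEPs, 2.34-fold at 8-9ss and 2.04-fold at 11-12ss, against 2.31-fold in whole embryo. Their summed RPKM was 539 in the PPR, 552 in OEPs, 506 at 8-9ss and 514 at 11-12ss, against 543 in whole embryo.

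CDT1, the loading factor, and GMNN (geminin), its inhibitor, ranged by 1.45-fold and 1.39-fold, with CDT1 highest in OEPs and GMNN highest in the PPR. By RPKM CDT1 was highest in the PPR, at 102.8, against 100.8 in OEPs and 90.5 at 11-12ss, its lowest library. ORC4 and ORC6 ranged by 1.29-fold each. Among the loci under older symbols, ORC5L had 2405 in the PPR, 1591 in OEPs, 1314 at 8-9ss, 1244 at 11-12ss and 2007 in whole embryo. It was lower than in the PPR by 1.52-fold (95% interval 1.42 to 1.63) in OEPs, and lower than in whole embryo by 1.53-fold (95% interval 1.42 to 1.65) at 8-9ss and 1.64-fold (95% interval 1.51 to 1.77) at 11-12ss. The first of these was not met by RPKM (OEPs over the PPR 0.823). ORC3L was lower at 11-12ss than in whole embryo by 1.55-fold (95% interval 1.45 to 1.66), and ORC2L was called in no comparison.

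None of the 9 genes of helicase firing and the fork was called in any comparison. PCNA was the most abundant member by RPKM, with 466 in the PPR, 632 in OEPs, 579.5 at 8-9ss, 566 at 11-12ss and 526 in whole embryo. Its normalized counts were 17103 in the PPR, 19679 in OEPs, 17712 at 8-9ss, 17033 at 11-12ss and 16582 in whole embryo, a range of 1.19-fold. The 4 GINS genes summed to 224 RPKM in the PPR, 240 in OEPs, 249 at 8-9ss and 252 at 11-12ss, against 282 in whole embryo. The order differed by normalized counts, with sums of 10590 in the PPR, 11314 in OEPs, 11055 at 8-9ss, 11015 at 11-12ss and 10776 in whole embryo. By normalized counts GINS1, GINS3 and GINS4 were lowest in the PPR while GINS2 was highest there. CDC45, which joins GINS and MCM in the active helicase, ranged by 1.51-fold, and CDC7, the kinase that fires origins, by 1.57-fold, both highest in the PPR. MCM8 and MCM9, which act in recombination repair, ranged by 1.55-fold and 1.38-fold at 4.45 to 12.6 RPKM.

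The E2F family comprises activators (E2F1 to E2F3), repressors (E2F4 to E2F6) and the atypical repressors E2F7 and E2F8. E2F8, the member with the highest RPKM, had 3406 in the PPR, 2505 in OEPs, 1632 at 8-9ss, 2419 at 11-12ss and 2799 in whole embryo. The 8-9ss placode was the low library. It was lower than OEPs by 1.52-fold (95% interval 1.41 to 1.64) and lower than whole embryo by 1.72-fold (95% interval 1.61 to 1.84). By RPKM these ratios, 8-9ss over the other library, were 0.748 and 0.820, and neither call was met. E2F5 had 1573 in the PPR, 1057 in OEPs, 920.1 at 8-9ss, 1232 at 11-12ss and 1378 in whole embryo, and was also lowest at 8-9ss. It was lower there than in whole embryo by 1.503-fold (95% interval 1.38 to 1.64), a call not met by RPKM (8-9ss over whole embryo 0.747).

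E2F1 ran the other way, from 1625 in the PPR through 2392 in OEPs and 2478 at 8-9ss to 2863 at 11-12ss, against 2165 in whole embryo, but no step reached 1.5-fold. Its log2 fold changes were 0.55 in OEPs over the PPR, 0.06 at 8-9ss over OEPs and 0.20 at 11-12ss over 8-9ss. E2F2, E2F3, E2F4, E2F6 and E2F7 ranged by 1.27-fold to 1.44-fold with no call.

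Among the kinases and checkpoint genes of mitosis, PLK2 had the widest range of all 60 expressed genes. PLK2, a Polo-like kinase outside the core of mitosis that responds to signals and stress, had 115 in the PPR, 319 in OEPs, 853 at 8-9ss, 1622 at 11-12ss and 630.4 in whole embryo. Each later ectoderm stage was above the one before it. It was called at the last step, where 11-12ss exceeded 8-9ss by 1.89-fold (95% interval 1.72 to 2.07) and whole embryo by 2.53-fold (95% interval 2.30 to 2.79). At earlier stages it was under the RPKM limit, at 0.437 in the PPR, 1.37 in OEPs and 3.30 at 8-9ss, so its earlier log2 fold changes of 1.46 in OEPs over the PPR and 1.43 at 8-9ss over OEPs were not called. From the PPR to 11-12ss the range was 14.1-fold.

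PLK4, the kinase of centriole duplication, had 8892 in the PPR, 5871 in OEPs, 4698 at 8-9ss, 5005 at 11-12ss and 5348 in whole embryo. The PPR was high, and OEPs were lower by 1.52-fold (95% interval 1.47 to 1.58), a call not met by RPKM (OEPs over the PPR 0.763). PLK1, the central mitotic Polo kinase, had the highest RPKM of the group, with 227 in the PPR, 217 in OEPs, 224 at 8-9ss, 199.9 at 11-12ss and 258 in whole embryo, and its normalized counts were 17359 in the PPR, 15756 in OEPs, 16551 at 8-9ss, 14872 at 11-12ss and 19186 in whole embryo. AURKA, CDC20, CDC25A, PLK3, BUB1 and BUB1B ranged by 1.15-fold to 1.56-fold with no call. CDC20, which activates the anaphase-promoting complex, and AURKA, the spindle pole kinase, were lowest at 11-12ss. BUB1 and BUB1B, the spindle checkpoint kinases, were highest in the PPR.

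MKI67 and TOP2A, widely used proliferation markers, had measured log2 fold changes of the same sign at each of the 3 steps. MKI67 was called at the first. The shared sign at the first step did not hold relative to loci of similar length, as given below. The measured values were -0.95 for MKI67 and -0.35 for TOP2A in OEPs over the PPR. They were -0.25 and -0.13 at 8-9ss over OEPs, and 0.53 for each at 11-12ss over 8-9ss. MKI67, which coats mitotic chromosomes, had 17503 in the PPR, 9130.2 in OEPs, 7615 at 8-9ss, 11046 at 11-12ss and 11024 in whole embryo. The PPR was the high library and OEPs were lower by 1.93-fold (95% interval 1.87 to 1.99). TOP2A, the topoisomerase that untangles sister DNA, had 44570.4 in the PPR, 35215 in OEPs, 31857 at 8-9ss, 46369.8 at 11-12ss and 42285 in whole embryo. It ranged by 1.46-fold, was highest at 11-12ss and was called in no comparison. By RPKM TOP2A had 146 in the PPR, 131 in OEPs, 113 at 8-9ss, 158 at 11-12ss and 141 in whole embryo. Both markers were lowest at 8-9ss.

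The step from the PPR to OEPs also differed by transcript length over the whole genome. Effective length was computed from the ratio of a gene's counts to its RPKM, scaled by library total, with the median of the 5 libraries used. In OEPs against the PPR the median log2 fold change of all expressed loci was 0.31 in the shortest quartile and 0.03, -0.10 and -0.29 in the next 3. For the cell cycle genes in those quartiles it was 0.17, -0.22, -0.20 and -0.30 (10, 23, 14 and 12 genes). The gradient was smaller and of the opposite sign at 11-12ss over 8-9ss, where the quartile medians of all loci were -0.18, -0.08, -0.01 and 0.11.

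Calls of MKI67 and PLK4 at the first step moved across the limit once each gene was set against loci of its own length decile, a measure chosen after seeing the data. MKI67, with an effective length of 8697 bases, had a log2 fold change of -0.95 as measured and -0.57 relative to its decile, and PLK4 -0.61 and -0.41, both then short of 1.5-fold. TOP2A, at -0.35 as measured, was at 0.03 relative to its decile, so it no longer shared the sign of MKI67. MCM5, at 0.50 as measured, passed the limit at 0.62. CCNA1 at -3.03, CDK19 at -2.01, CCND2 at -1.74, CDK17 at -1.29 and CDK6 at -0.93 stayed lower, and CDKN1B at 0.77, CDC6 at 0.63 and CCND3 at 0.71 stayed higher. The median of the 59 genes was then -0.11. At 8-9ss over OEPs CDK6, at -0.57 as measured, passed the limit at -0.62 and was then lower. At 11-12ss over 8-9ss CDK14 was just short, at 0.58, PLK2 at 0.75 and CDK18 at 0.81 stayed higher, and E2F8 passed the limit at 0.66. MKI67 and TOP2A, at 0.53 each as measured at that step, were at 0.36 and 0.37. Read depth, read type and length cannot be told apart from stage in these libraries, and their part was not tested.

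**Figure D4:**
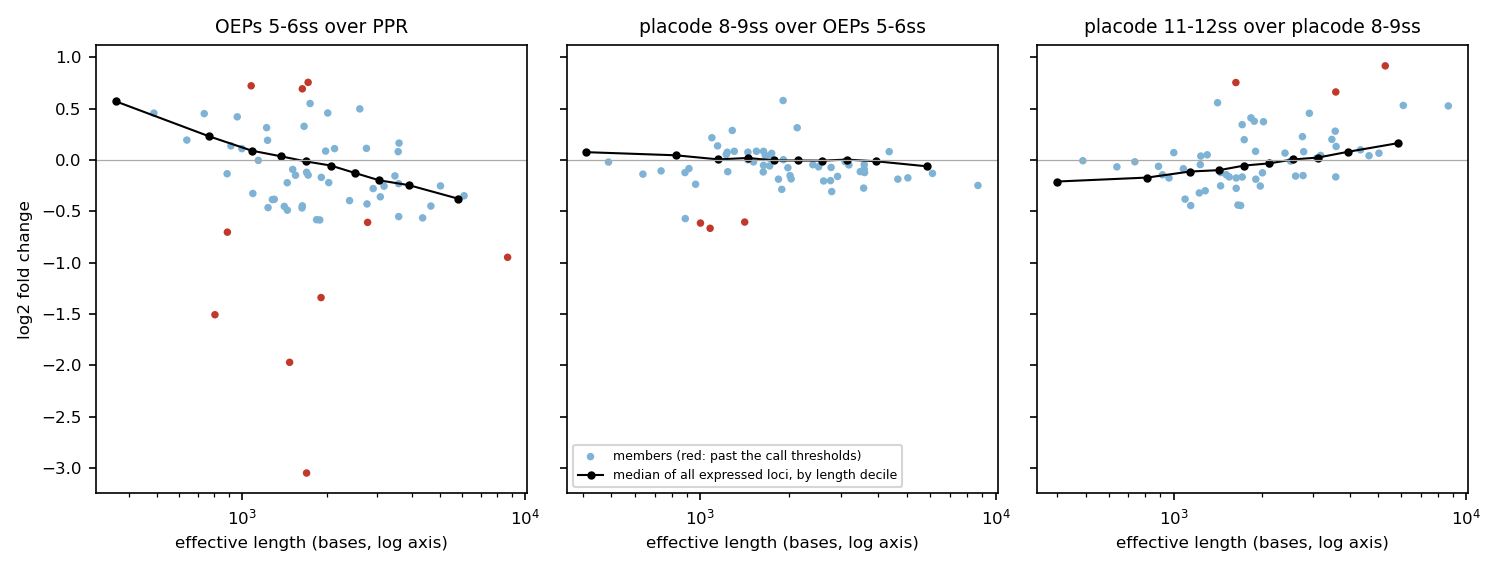
Log2 fold change of each expressed cell cycle gene (points; red: called) against effective length in bases on a log axis, for the 3 steps between consecutive stages; the black line joins the medians of all expressed loci in 10 length classes. The line slopes down in OEPs over the PPR, is nearly flat at the second step and slopes up at the last, and MKI67 is the rightmost point in each panel.

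Other genes of the same processes were read from 5 lists (fork, nucleotide supply, mitosis, checkpoint and anaphase-promoting complex, and cell cycle control) holding 139 measured loci. In OEPs against the PPR 9 of 138 expressed loci were higher and 27 lower, beside 18% and 18.9% of all loci. At 8-9ss over OEPs 0 of 135 were higher and 1 lower, beside 3.89% and 4.99% of all loci. At 11-12ss over 8-9ss 3 of 136 were higher and 1 lower, beside 6.54% and 3.63%. Against whole embryo the counts higher and lower were 5 and 10 of 138 in OEPs (beside 13.9% and 10.2% of all loci), 5 and 20 of 137 at 8-9ss (beside 15% and 13.1%), and 2 and 13 of 138 at 11-12ss (beside 14.7% and 12.8%).

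The mitosis list held 14 of the 27 loci that were lower in OEPs than in the PPR, out of 44, with 0 higher (18.9% of all loci were lower and 18% higher) and a median log2 fold change of -0.32. CENPA, the histone of centromeres, had 561 in the PPR, 187 in OEPs, 326 at 8-9ss, 414 at 11-12ss and 562 in whole embryo, and OEPs were lower by 3.02-fold (95% interval 2.48 to 3.72). KNTC1, a kinetochore protein, was lower by 2.21-fold (95% interval 2.12 to 2.30) and SMC2, a condensin subunit, by 1.87-fold (95% interval 1.84 to 1.91). Relative to their length deciles, 4 of the 14 loci stayed past 1.5-fold, among them CENPA at -2.17 and KNTC1 at -0.77 on the log2 scale, while SMC2 was at -0.53. Of the 14 calls, CENPF accounts for 2, on separate loci that carry its symbol.

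In the checkpoint list 2 of 23 loci were higher and 3 lower in OEPs than in the PPR, beside 18% and 18.9% of all loci. CDC26 was higher by 2.11-fold (95% interval 1.90 to 2.35) and ANAPC2 by 1.63-fold (95% interval 1.57 to 1.69), both subunits of the anaphase-promoting complex. Relative to its length decile CDC26 was short of 1.5-fold, at 0.51 on the log2 scale. TTK, a spindle checkpoint kinase, was lower by 1.99-fold (95% interval 1.91 to 2.07), UBE2C, the ubiquitin-conjugating enzyme of that complex, by 1.96-fold (95% interval 1.85 to 2.09), and its subunit ANAPC10 by 1.60-fold (95% interval 1.40 to 1.83). UBE2C was then also called lower in all 3 otic libraries against whole embryo.

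In the fork list 2 of 30 loci were higher and 2 lower in OEPs than in the PPR, beside 18% and 18.9% of all loci. FEN1, the flap nuclease of lagging strands, was higher by 1.62-fold (95% interval 1.58 to 1.66) and DNMT1, the maintenance DNA methyltransferase, by 1.54-fold (95% interval 1.497 to 1.59). TICRR, which helps to fire origins, was lower by 1.57-fold (95% interval 1.51 to 1.64) and the leading strand polymerase subunit POLE by 1.56-fold (95% interval 1.51 to 1.62), and neither stayed past the limit relative to its length decile (-0.28 and -0.27 on the log2 scale). At 11-12ss RECQL4, a DNA helicase, exceeded 8-9ss by 1.63-fold (95% interval 1.41 to 1.90). Of the 8 nucleotide supply loci, CAD, which starts pyrimidine synthesis, was the 1 called over the steps, higher in OEPs than in the PPR by 1.61-fold (95% interval 1.58 to 1.63).

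In the control list 4 of 33 loci were higher and 8 lower in OEPs than in the PPR, beside 18% and 18.9% of all loci. BTG1, an antiproliferative gene, was higher by 1.90-fold (95% interval 1.84 to 1.98) and MYCN, a growth-promoting factor, by 1.90-fold (95% interval 1.84 to 1.96). MDM2, which degrades p53, was lower by 2.99-fold (95% interval 2.70 to 3.32), CCNT2, a cyclin of transcription, by 2.60-fold (95% interval 2.37 to 2.86), and ATM, the DNA damage kinase, by 2.52-fold (95% interval 2.34 to 2.71). MYC had 631 in the PPR, 513 in OEPs, 749 at 8-9ss, 1294 at 11-12ss and 3539 in whole embryo, with whole embryo the highest library, and 11-12ss exceeded 8-9ss by 1.71-fold (95% interval 1.55 to 1.90).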

How the data were processed

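RNA of 5 conditions of the chick embryo was sequenced, with 1 polyA library each. The authors used single or paired reads, but which library had which is not given in the sources used here. They aligned the reads with TopHat2 2.0.7, assembled them with Cufflinks 2.1.1 and took Galgal4.71 as annotation. The authors deposited counts per locus from easyRNAseq 2.1.0, without normalization, and RPKM per locus from Cuffdiff 2.1.1, scaled by transcript length and mapped reads. Counting of shared or antisense reads was not examined, so overlapping loci and close paralogues may share reads.

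Library sizes were adjusted by the median of ratios to the geometric mean, over the 2 libraries of a comparison or, for levels, over all 5, and counts under 3 were raised to 3. A locus was called past 1.5-fold when the higher library had over 300 normalized counts and an RPKM over 4, and calls were made over all loci. Intervals are exact binomial 95% limits of the 2 counts and cover counting error only. The labels gave the groups, and no condition has a replicate. Results were recomputed with size factors from all 5 libraries, TMM (edgeR 4.0.16 in R 4.3.3), total count scaling, deposited RPKM, no expression thresholds, an interval wholly past 1.5-fold and, added after seeing the data, centring by length decile. The calling step was tested on simulated counts with known fold changes, drawn for the libraries of each of the 6 comparisons.

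The genes and lists were chosen with earlier results of these data known. Every gene is accounted for by role. Levels in each library are printed for genes called in at least 1 comparison or with the highest RPKM of their role, and, of the pathway lists, the called loci with the 3 largest fold changes in each direction over the 3 steps are named. CDK10 and GINS4 carry a second name in the RPKM table and were matched by locus. The library values of E2F1, ORC5L and the marker genes were chosen after their values were seen. Promoter motifs were not analysed here. Python 3.11.15, numpy 2.4.6, pandas 2.3.3 and scipy 1.17.1 were used.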

Additional observations from a re-analysis of the deposited data

How the results depend on the processing

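Of the 29 calls in the 6 comparisons, 28 were kept with size factors over all 5 libraries (3 new calls), 29 with TMM (5 new), 27 with total count scaling (15 new), 15 with the deposited RPKM (9 new), 29 with no expression thresholds (17 new), 17 where the interval had to lie wholly past 1.5-fold, and 25 after centring by length decile (4 new, chosen after seeing the data). None of the 29 calls reversed its direction under any of these settings. Dropping the thresholds or requiring the strict interval leaves the fold change as it is, so no reversal was possible there. Values of called genes near 0 in other comparisons could change sign. CDC6 at 11-12ss over 8-9ss was at -0.09 as measured and 0.03 centred by length. The shares of all loci called under each setting are not given here. The counts that follow therefore describe how the calls moved, not these genes against other loci. In OEPs over the PPR, 11 genes were lower with total count scaling, 6 were higher with no expression thresholds, and the median log2 fold change was -0.10 by RPKM and -0.11 centred by length. RPKM gave 2 genes higher at that step, CCNE1 and CDK10, and met none of the 3 higher calls made from counts (CDKN1B, CDC6 and CCND3). At 8-9ss over OEPs, RPKM gave 1 higher and 1 lower, no thresholds gave 1 higher, and the strict interval gave 0 lower. At 11-12ss over 8-9ss, RPKM and no thresholds each gave 1 lower. In OEPs over whole embryo, total count scaling gave 1 higher, 4 lower and a median of -0.12, RPKM gave 1 higher, no thresholds gave 4 higher and 5 lower, and the strict interval 0 higher and 1 lower. At 8-9ss over whole embryo, total count scaling gave 0 higher, 6 lower and a median of -0.16, RPKM gave 1 lower, no thresholds gave 2 higher and 5 lower, and the strict interval 0 higher. At 11-12ss over whole embryo, the genes lower were 2 with size factors over all 5 libraries, 2 with TMM, 2 by RPKM, 5 with total count scaling and 3 with no thresholds. The strict interval removes calls, and dropping the thresholds adds them, by construction; the cause of the other shifts was not tested. No paired analysis was possible because each condition has 1 library. The planned motif search was not run, since no promoter sequences were given. With 1 library a condition, differences between embryos and preparations are not measured, and depth limits the low genes most, such as CCNA1 with 39 reads in OEPs.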

Other observations

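Counts and RPKM of the same gene can disagree. Among the cell cycle genes the RPKM ratio differed from the count ratio by more than 1.5-fold for CDK10 and CDK13 in OEPs over the PPR, for MCM8 at 8-9ss over OEPs, for CDK10 at 11-12ss over 8-9ss, for CDC6, CDK10 and CDK5 in OEPs over whole embryo, and for CDK10 at 8-9ss over whole embryo. Over all expressed loci such a gap was found for 8.67% in OEPs over the PPR and for 1.02% to 4.68% in the other 5 comparisons.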
